A study of Homo sapiens with 16 samples.

Results

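The control state of MOLM-13 cells is described here from 4 libraries of the 16 in the series, those of cells kept for 4 days in 0.005% DMSO, the solvent that served as the vehicle control. MOLM-13 is an established human cell line derived from acute myeloid leukaemia, known for carrying an MLL-AF9 fusion (KMT2A joined to MLLT3) and an internal tandem duplication in FLT3. Cells were grown in RPMI1640 with 10% foetal bovine serum. No inhibitor was given to these 4 samples, and the treated samples of the series were not used. The line is a culture of leukaemia cells without the stroma and other blood cells of a marrow, and the table has no entry of its own for the fusion transcript. The sources do not say whether the 4 replicates are separate cultures, so the spread given below may be in part technical. The members are all genes of the deposited count table in these 4 libraries.

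Acute myeloid leukaemia with an MLL fusion holds myeloid progenitors at an immature stage. The fusion protein recruits the elongation machinery and DOT1L to its targets, above all the late HOXA genes and MEIS1, and keeps a self-renewal programme on that normal cells shut down as they mature. Polycomb complexes hold other developmental genes and cell cycle inhibitors silent, and FLT3 with an internal tandem duplication signals through STAT5, RAS and PI3K without its ligand. A baseline transcriptome therefore shows which of these parts are present as RNA and which are not.

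The depth was 41.9, 31.1, 46.4 and 52.9 M expected counts for replicates 1 to 4, and all sets of 4 values below follow that order. Protein-coding genes took 79.6% to 86.5% of the counts, and the signal recognition particle RNA 7SL took 5.19% to 7.24%. Replicate 1 stood apart in RNA of ribosomes: mitochondrial ribosomal RNA took 1.61, 0.133, 0.00920 and 0.00689% of the counts, and a set of long non-coding entries named after clone CH507-513H4 took 2.44% in replicate 1 and 0.0142% to 0.0278% in the others. Replicates 1 and 2 also departed from the other libraries in opposite directions with the GC content of a gene, as described at the end. All results rest on the 4 libraries, and the values without replicate 1 or 2 are given where they move a count by over 1.5 times. Levels are in TPM, transcripts per 1 M transcripts, here counts divided by gene length and scaled to the same sum over all protein-coding genes in each library, so that genes can be compared with each other within the sample.

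A protein-coding gene was called expressed with at least 1 TPM in each of the 4 libraries, and 10533 of 19686 genes (53.5%) met this. A gene was called silent with under 0.1 TPM in each library, which held for 6134 genes (31.2%). No count at all in any of the 4 libraries was found for 3688 genes (18.7%). Counts of list and family members below are to be read against these shares. A count of 0 allows up to 3 counts per library, or 0.0567 to 0.0963 counts per 1 M counts (CPM), and this limit covers counting error only. RNA was concentrated in few genes: the 1150 genes with at least 100 TPM in every library held 72.8% of all protein-coding TPM. The 100 most abundant genes held 41.0% and the 1000 most abundant held 71.4%. The 5827 genes with 10 to 100 TPM in their lowest library held 24.6%. The 3556 genes with 1 to 10 TPM in their lowest library held 2.45%. Genes of these classes can have a higher mean, as RPS16 does at 558 TPM in the first of them.

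The most abundant RNAs were those of the translation machinery. EEF1A1, the elongation factor that brings aminoacyl-tRNA to the ribosome, was at 27072, 19237, 21813 and 24126 TPM. It was lowest in replicate 2 and highest in replicate 1, with a mean of 23062 ± 3337 TPM (SD, n = 4), and every value after ± below is such an SD over the 4 libraries. RPS18, a protein of the small ribosomal subunit, followed at 15003, 10702, 12709.9 and 13494 TPM. RPL7, of the large subunit, was at 12164, 8695, 8827 and 9815 TPM, again with replicate 1 highest and replicate 2 lowest. Ribosomal proteins made up 18 of the 25 most abundant genes and 69 of the 100 most abundant. Of 87 ribosomal protein genes, 84 were expressed, against 53.5% of all protein-coding genes. Together the 87 held 27.8% to 31.2% of the protein-coding TPM of a library. Ribosomal proteins and EEF1A1 have many near-identical processed copies in the genome, and the way reads were divided among them bears on these values.

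Of the other 7 abundant genes, 4 work outside translation. TMSB4X, which binds actin monomers, was at 6690.0, 4947, 6381 and 6748 TPM, and PTMA, a small acidic nuclear protein linked to proliferation, was at 5555, 4398, 5658 and 5721 TPM. SRGN, the proteoglycan core protein of blood cell granules, was at 7341, 3698, 4544 and 4904 TPM, highest in replicate 1 and lowest in replicate 2. It is the gene of this group most closely tied to blood cells. GAPDH, the glycolytic enzyme, was at 4234, 5596, 5635 and 5464 TPM and was lowest in replicate 1. TPT1, a growth-related protein whose translation is controlled with that of ribosomal proteins, averaged 8605 ± 1252 TPM. GNB2L1, the ribosome scaffold also called RACK1, averaged 5989 ± 318 TPM. Both depend on the length used: merged exon lengths give 2856 TPM for TPT1 and 1884 TPM for GNB2L1. The same lengths lower RPL30 to 2613 TPM, RPL37A to 907 TPM and RPS24 to 903 TPM, so the order of the abundant genes is uncertain. In the plot of the abundant genes, replicate 2 has the lowest value for most genes.

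**Figure D1:**
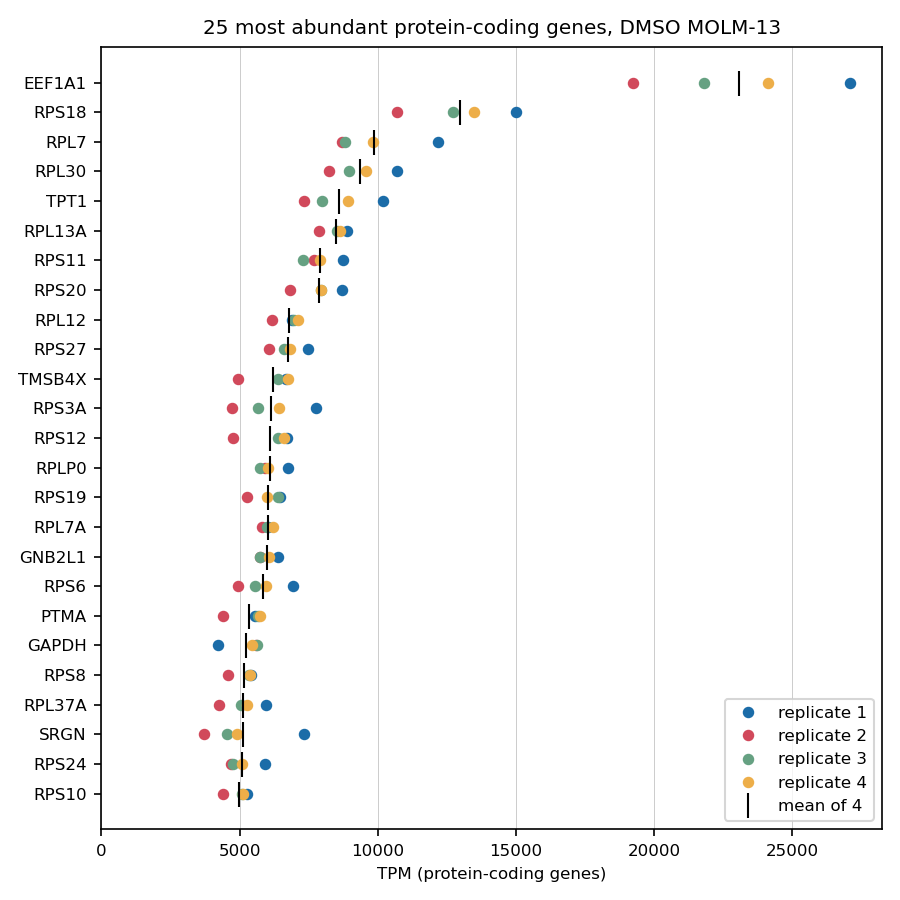
The 25 protein-coding genes with the highest mean level, with TPM on a linear axis from 0; coloured points are the 4 DMSO libraries and the black mark is their mean. EEF1A1 lies far to the right at 19237 to 27072 TPM and the other 24 genes have means from 4982 to 12977 TPM.

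RNAs that are not translated were also abundant. The 10 non-coding entries with the highest level per length were RN7SL1 and an entry named Metazoa_SRP, both 7SL RNA of the signal recognition particle, RN7SK, the RNA that holds the elongation factor P-TEFb inactive, RPPH1, the RNA of RNase P, RMRP under 2 identifiers, the small nucleolar RNAs SNORD3A, SNORA73A and SNORA73B, and a processed pseudogene of RPL41. Of these, RN7SL1, RN7SK, RPPH1, both RMRP entries and SNORA73A share 98.5% to 100% of their exon bases with another annotated gene. Their levels are therefore uncertain. RN7SK took 3.20, 3.503, 3.68 and 3.47% of all counts, close to equal in the 4 libraries. Small nucleolar RNAs took 1.37, 0.616, 1.34 and 1.15%, with replicate 2 lowest. Such RNAs carry no long poly(A) tail, and the sources do not say how RNA was selected.

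The share of promoters with common elements differed between level classes, given here as a description without a test. RefSeq gives 250 bases before to 50 bases after a start, on build GRCh38.p14, for 15266 of the 19686 genes, and the window from 100 bases before to 20 after the first listed start was searched. Classes of expressed genes go by the lowest library, as above. The median window held 11 CG dinucleotides in genes of at least 100 TPM, 12 in genes from 1 to 100 TPM and 4 in silent genes. CGGAAG, the core of sites for ETS family factors, was found on either strand in 29.8% of the windows of genes of at least 100 TPM, in 5.60% of those of silent genes and in 16.8% of all. GGGCGG, the GC box of SP factors, was found on either strand in 47.8%, 28.0% and 45.4% of the same classes, and most often in genes from 10 to 100 TPM (55.5%) and from 1 to 10 TPM (55.6%). It can share 3 bases with CGGAAG. The NF-Y box, CCAAT, was found on either strand in 29.4%, 20.8% and 22.4%. TATA on the gene's strand between 40 and 20 bases before the start was most frequent at both ends, in 12.3% of the top class and 14.5% of silent genes against 7.51% of all. A run of 5 pyrimidines that begins with C at the start base, the form known from mRNAs of the translation machinery, stood in 44 of 70 windows of ribosomal protein genes (62.9%), in 14.8% of the top class and in 4.68% of all windows. CGGAAG and GGGCGG each contain a CG, and the median GC content of the windows was 58.3% in silent genes against 65.8% in the top class. The motif shares were not adjusted for base composition. A match is a description of letters and shows no binding.

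The windows of the 2 most abundant genes are shown with TATA in its interval and the pyrimidine run at the start in capitals, which both hold, and with CGGAAG on either strand, which RPS18 holds and EEF1A1 does not. EEF1A1 is on chr6:73521013-73521132, minus strand, and RPS18 is on chr6:33271975-33272094, plus strand. These are reference sequences, not read from MOLM-13.
EEF1A1: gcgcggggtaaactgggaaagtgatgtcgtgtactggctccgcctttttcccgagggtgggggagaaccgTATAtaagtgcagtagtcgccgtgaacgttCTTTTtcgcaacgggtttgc
RPS18: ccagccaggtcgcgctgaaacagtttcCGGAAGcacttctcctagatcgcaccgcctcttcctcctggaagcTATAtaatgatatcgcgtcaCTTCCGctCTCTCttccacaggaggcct

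Markers of monocytes and granulocytes were the lineage markers most often expressed. Of 22 monocyte and macrophage markers, 16 were expressed and 3 were silent. Of 17 granulocyte markers, 9 were expressed and 4 were silent, shares close to those of all protein-coding genes (53.5% and 31.2%), but 5 of the 9 had at least 100 TPM in every library. LYZ, the lysozyme of both lineages, was at 2197, 1201, 1889.9 and 1993 TPM, but shares 34% of its exon bases with another annotated gene. PRTN3, proteinase 3 of primary granules, was at 1626, 3934, 2545 and 1985 TPM, with replicate 2 highest and replicate 1 lowest. ELANE, neutrophil elastase, averaged 466 ± 274 TPM, AZU1, azurocidin, 520.1 ± 288 TPM and CTSG, cathepsin G, 317 ± 58.7 TPM. MPO, the peroxidase stored in the same primary granules, was at 5.66, 14.4, 9.50 and 7.72 TPM, far under the proteases in every library. The late granule genes LCN2, MMP8 and CEACAM8 had no count in any library, and LTF, lactoferrin, was at 0 to 0.126 TPM. CAMP, another gene of secondary granules, was at 0.643, 0.0844, 0.517 and 0.446 TPM. The proteases PRTN3, ELANE, AZU1 and CTSG were thus abundant, MPO was not, and the 4 late granule genes and CAMP stayed under 1 TPM.

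The PRTN3 window, chr19:840899-841018 on the plus strand, is shown for the most abundant of these genes. It holds CCAAT in reverse at 2 places and TATA in its interval, both in capitals, and 2 CG dinucleotides.
PRTN3: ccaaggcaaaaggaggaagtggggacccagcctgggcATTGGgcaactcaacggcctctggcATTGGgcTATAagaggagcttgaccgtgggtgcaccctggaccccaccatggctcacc

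Among monocyte genes the pattern was also partial. CCR2, the chemokine receptor of classical monocytes, was at 99.4, 75.5, 98.8 and 108 TPM, and FCGR1A, the high affinity Fc receptor, was at 72.3, 59.2, 46.9 and 50.4 TPM. CSF1R, the receptor that monocytes need to become macrophages, was at 4.86, 20.3, 12.8 and 8.59 TPM, highest in replicate 2 and lowest in replicate 1. CD14, the lipopolysaccharide co-receptor of mature monocytes, stayed at 0.244 to 0.523 TPM. S100A8 and S100A9, which form the calprotectin of mature myeloid cells, were at 1.43 to 1.61 and 1.42 to 2.75 TPM. The macrophage receptors CD163 and MRC1 were silent. In a bulk sample, fewer cells of a type and less RNA per cell cannot be told apart, which holds for every low level given here.

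Of 14 genes of the eosinophil, basophil and mast cell list 2 were expressed (14.3%) and 5 were silent (35.7%), the latter close to the 31.2% of all protein-coding genes. RNASE2 and RNASE3, ribonucleases of eosinophil granules that stand in the granulocyte list here, were at 683, 830.4, 515 and 551 and 25.3, 31.2, 18.8 and 19.4 TPM. PRG2, eosinophil major basic protein, was the highest of the list at 362, 360.0, 82.5 and 81.6 TPM. Replicates 1 and 2 lay far above replicates 3 and 4, and PRG2 was among the 15 genes with the widest spread. PRG2 shares 43% of its exon bases with another annotated gene. EPX, eosinophil peroxidase, was at 3.08, 7.59, 0.790 and 0.696 TPM, higher in the same libraries. The defining granule gene CLC was at 0.0755, 0, 0 and 0 TPM and CPA3, the mast cell carboxypeptidase, had no count. GATA2, a factor of progenitors and mast cells, was the other expressed member at 19.6, 41.1, 18.4 and 13.2 TPM.

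Of 14 stem and progenitor genes 4 were expressed (28.6%) and 7 were silent, against 53.5% and 31.2% of all protein-coding genes. CD34, the antigen of haematopoietic stem cells, MECOM, a stem cell factor, CRHBP and AVP had no count in any library. KIT, the stem cell factor receptor, was at 0.0462, 0.0364, 0.0577 and 0.0499 TPM. SOX4, a progenitor factor, was at 17.2, 16.3, 15.8 and 15.9 TPM, with little spread. CD38, which marks more mature progenitors, was at 5.99, 5.93, 9.83 and 9.25 TPM. CD244 averaged 22.3 ± 3.001 TPM.

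Other blood lineages had few markers expressed. All protein-coding genes, for comparison, were expressed in 53.5% and silent in 31.2% of cases. Of 15 erythroid markers, 11 were silent, among them HBA1, HBG1, HBG2 and AHSP with no count, and EPOR, the erythropoietin receptor, was the 1 expressed member at 6.78 to 10.7 TPM. Of 11 megakaryocyte markers none was expressed and 5 were silent, and PF4 and PPBP had no count. Of 18 T and NK cell markers, 3 were expressed and 11 were silent. CD3D, a chain of the T cell receptor complex, was at 20.03, 15.1, 14.8 and 15.8 TPM while its partner chains CD3E and CD3G stayed at 0 to 0.0302 and 0 to 0.0442 TPM. NKG7, a protein of cytotoxic granules, was at 39.3, 64.6, 48.9 and 47.2 TPM, and NCAM1, the CD56 antigen, at 7.62, 16.7, 10.1 and 8.29 TPM. CD4, which monocytes carry as well as T cells, was at 53.9, 176, 105 and 99.2 TPM. Of 15 B cell markers the surrogate light chain gene IGLL1 was the 1 expressed, at 7.05, 12.2, 4.71 and 4.84 TPM. Silent B cell markers numbered 5 (33.3%), close to the share of all protein-coding genes. Of 12 dendritic cell markers 4 were expressed, FCER2, AXL, BATF3 and SIGLEC6, and 3 were silent (25%), a share under that of all protein-coding genes. CLEC9A had no count. The list of epithelial cells, fibroblasts and endothelium, a check for foreign cells, had 2 of 15 genes expressed and 8 silent. KRT18 was at 12.8 to 18.8 TPM and KRT8 at 1.28 to 2.04 TPM, while EPCAM stayed at 0 to 0.105 TPM and CDH1, KRT19, COL3A1, KDR and CDH5 had no count.

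**Figure D2:**
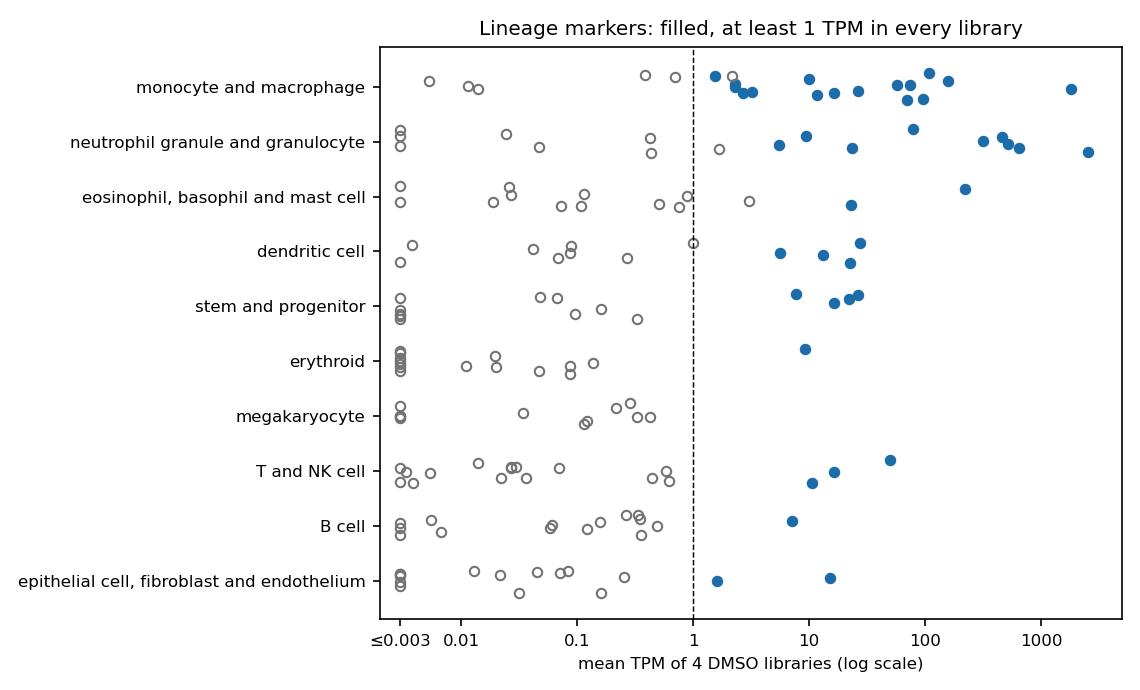
Mean TPM of the 4 DMSO libraries on a log axis for each gene of the 10 marker lists; filled points had at least 1 TPM in every library, open points did not, the dashed line is 1 TPM, and genes at or under 0.003 TPM are drawn at the left edge. The 2 upper lists have 16 of 22 and 9 of 17 filled points, and the megakaryocyte list has none.

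Most lineage transcription factors were expressed, and the highest were those of myeloid cells and progenitors. Of 42 lineage factors, 28 were expressed (66.7%) and 7 were silent (16.7%), against 53.5% and 31.2% of all protein-coding genes. IRF8, which directs progenitors toward monocytes and dendritic cells, was the highest at 409.7, 416, 439 and 434 TPM, with little spread. MYB, which sustains progenitor growth, was at 262, 298, 308 and 309 TPM. CEBPA, the factor of granulocyte fate, averaged 236 ± 29.4 TPM and shares 25% of its exon bases with an annotated neighbour. SPI1, which encodes PU.1, the factor common to all myeloid cells, was at 41.2, 117, 89.1 and 70.1 TPM with replicate 1 lowest. GFI1, a repressor in granulocyte precursors, averaged 106 ± 11.8 TPM and LMO2, a bridging protein of progenitor complexes, 107 ± 3.85 TPM. RUNX1, required for blood formation, averaged 20.3 ± 5.29 TPM. CEBPE, needed for secondary granules, was at 1.97, 2.59, 0.826 and 1.26 TPM. TAL1 had no count, and GATA1, the erythroid factor, ERG, EBF1 and GATA3 were silent.

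The HOX genes were on in 1 cluster. Of 39 HOX genes, 7 were expressed, 26 were silent and 21 had no count, against 53.5%, 31.2% and 18.7% of all protein-coding genes. All 7 expressed genes belong to the HOXA cluster on chromosome 7. HOXB, HOXC and HOXD, with 10, 9 and 9 genes, had 9, 8 and 9 silent members, and the highest mean among them was 0.401 TPM, for HOXB7. HOXA9, the main target of MLL fusions, was at 63.4, 81.1, 78.7 and 73.1 TPM. HOXA10 was at 25.5, 30.9, 25.8 and 24.8 TPM, HOXA13 at 5.48, 4.63, 5.86 and 5.58 TPM and HOXA5 at 3.21, 3.87, 3.87 and 3.01 TPM. HOXA11, at 16.1 ± 1.39 TPM on average, and HOXA6 and HOXA7, at 2.93 ± 1.02 and 3.74 ± 1.41 TPM, share exon bases with antisense or neighbouring genes. In cluster order HOXA2 to HOXA4 lay between 0.0555 and 1.10 TPM, HOXA5 to HOXA7 between 1.73 and 5.19 TPM, and the maximum fell on HOXA9. The values of HOXA4 and HOXA5 and those of HOXA7 and HOXA9 did not overlap, whereas those of HOXA5, HOXA6 and HOXA7 did.

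The HOXA9 window at chr7:27165518-27165637, minus strand, has CCAAT in capitals and 12 CG dinucleotides. The median of genes with 1 to 100 TPM in their lowest library was also 12.
HOXA9: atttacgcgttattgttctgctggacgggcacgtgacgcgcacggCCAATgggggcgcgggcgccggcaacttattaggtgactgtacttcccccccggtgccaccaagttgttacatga

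The partners of HOXA9 and other genes of the MLL self-renewal programme were mostly on, 26 of 33 (78.8%). Silent members numbered 6 (18.2%), and the shares of all protein-coding genes were 53.5% expressed and 31.2% silent. MEIS1, the cofactor that binds DNA with HOXA9, was at 35.2, 34.3, 32.2 and 33.2 TPM. PBX3, the PBX partner, was at 49.9, 53.9, 56.4 and 55.2 TPM. MEF2C, a factor of MLL leukaemia stem cells, was at 238, 173, 232 and 250.1 TPM. MYC, the growth regulator, was at 275, 715, 599 and 484 TPM, lowest in replicate 1 and highest in replicate 2. CDK6, the cyclin-dependent kinase that MLL leukaemia depends on, averaged 181 ± 26.1 TPM. BCL2, the survival gene, averaged 107 ± 9.69 TPM, and LAMP5, a membrane protein described as a marker of MLL leukaemia, 267 ± 31.4 TPM. SIX4 and EYA1, developmental genes found in some MLL leukaemias, were silent.

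Genes of the proteins that work with the MLL fusion were nearly all expressed. Of 26 members, 25 were expressed, against 53.5% of all protein-coding genes, and none reached 100 TPM in every library. KMT2A, the MLL gene itself, was at 3.53, 6.45, 5.57 and 5.55 TPM and MLLT3, the AF9 gene, at 7.84, 7.09, 7.18 and 8.22 TPM, counted without regard to the fusion. DOT1L, the H3K79 methyltransferase, was at 6.80, 32.5, 19.3 and 14.1 TPM. MEN1, the menin that tethers MLL to chromatin, was at 5.78, 22.3, 15.3 and 11.3 TPM. Both genes ranked the libraries the same way, from replicate 1 as the lowest through 4 and 3 to 2. PSIP1, the LEDGF adaptor, was steadier at 58.4 ± 3.67 TPM. AFF1, AFF4, ELL and CDK9 of the elongation complex averaged 17.4 ± 3.40, 12.8 ± 1.62, 21.9 ± 3.85 and 25.3 ± 7.44 TPM.

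The enzymes that the series targets in its other samples, EZH2 and PRMT5, were expressed with their partners. All 13 PRC2 genes were expressed, against 53.5% of all protein-coding genes. EZH2, its methyltransferase, was at 14.6, 33.7, 33.0 and 31.2 TPM, with replicate 1 well below the other 3. EED was at 24.1, 22.5, 26.2 and 23.9 TPM and SUZ12, the other core subunit, at 68.5, 57.9, 59.0 and 65.2 TPM. EZH1, the less active relative of EZH2, averaged 17.2 ± 2.34 TPM. The histone binders RBBP4 and RBBP7, which serve several complexes, were higher at 199 ± 17.3 and 96.05 ± 3.34 TPM. Among accessory subunits JARID2 averaged 34.6 ± 6.49 TPM, MTF2 31.1 ± 2.37 TPM, PHF19 13.9 ± 2.62 TPM and C17orf96, also called EPOP, 10.4 ± 2.04 TPM.

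Of 14 genes of the arginine methyltransferase family and the PRMT5 methylosome, 13 were expressed, against 53.5% of all protein-coding genes. PRMT8, a brain gene, had no count. PRMT1, which makes most asymmetric dimethylarginine, was at 535, 516, 488 and 494 TPM. PRMT5 was at 87.0, 125, 103 and 106 TPM and its partner WDR77 at 33.1, 36.3, 32.4 and 33.6 TPM, and both share exon bases with another gene. The adaptors CLNS1A, RIOK1 and COPRS, which bring substrates to PRMT5, averaged 650.1 ± 84.7, 49.7 ± 3.93 and 43.5 ± 7.16 TPM. CARM1, another methyltransferase, was at 15.3, 45.3, 32.4 and 29.1 TPM, lowest in replicate 1 and highest in replicate 2. MTAP, which breaks down the methylthioadenosine that inhibits PRMT5, was expressed and is described with its neighbours below.

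Other chromatin lists were nearly complete as well, against 53.5% expressed and 31.2% silent of all protein-coding genes. Of 23 PRC1 genes 20 were expressed and none was silent. BMI1, a PRC1 subunit linked to self-renewal, averaged 200.2 ± 66.8 TPM but shares exon bases with a readthrough gene. RNF2 and RING1, the ubiquitin ligases, averaged 17.8 ± 3.53 and 32.4 ± 5.15 TPM. PHC1 and PCGF2 stayed under 1 TPM in every library. Of 13 DNA methylation genes 12 were expressed. DNMT1, the maintenance enzyme, was at 48.9, 96.2, 84.4 and 74.3 TPM, TET2, which oxidises methylcytosine, averaged 6.89 ± 0.630 TPM, and DNMT3A, the de novo enzyme, was at 7.45, 18.8, 11.7 and 11.2 TPM. All 25 deacetylases and acetyltransferases were expressed, led by HDAC2 at 164 ± 32.0 TPM, a value that falls to 50.4 TPM with the length definition that gives the lowest level. Of 25 SWI/SNF genes 22 were expressed, and the 3 silent ones, ACTL6B, DPF1 and DPF3, are subunits known from neurons or muscle. SMARCA4, the ATPase, was at 18.4, 69.7, 52.2 and 38.4 TPM. Of 24 other histone lysine enzymes 23 were expressed, and KDM1A, the H3K4 demethylase, averaged 94.5 ± 4.34 TPM. KDM6B, a demethylase of H3K27, was at 0.837, 2.75, 1.76 and 1.05 TPM, below KDM6A at 9.42, 11.9, 9.64 and 9.64 TPM in every library.

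**Figure D3:**
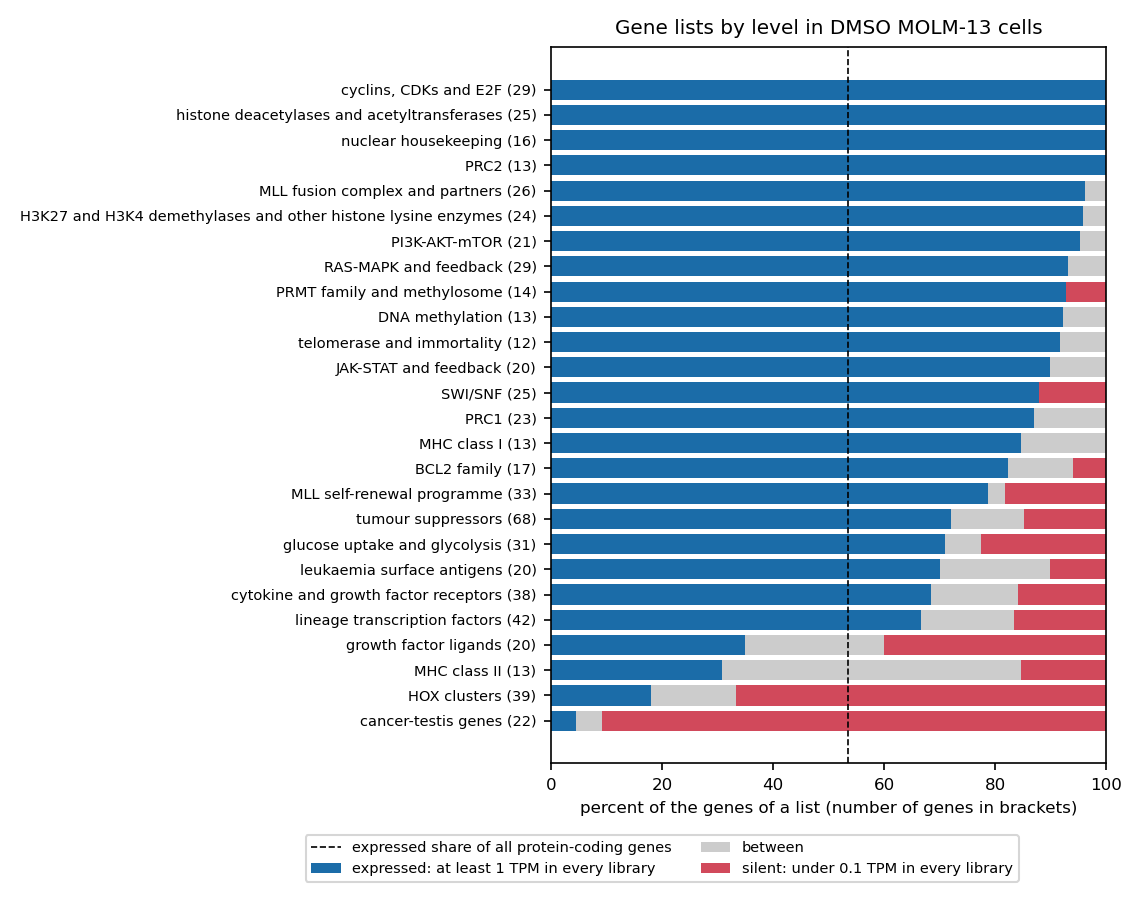
Share of the genes of each functional list that were expressed (blue), silent (red) or between (grey) in the 4 DMSO libraries, with the number of genes in brackets; the dashed line is the share of all protein-coding genes that were expressed, 53.5%. Of the 26 lists, growth factor ligands, MHC class II, HOX clusters and cancer-testis genes lie to the left of the line.

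FLT3 led the receptor genes. Of 38 cytokine and growth factor receptors 26 were expressed (68.4%) and 6 were silent (15.8%), against 53.5% and 31.2% of all protein-coding genes. FLT3 was the 1 member with at least 100 TPM in every library. FLT3, the receptor tyrosine kinase of myeloid progenitors, was at 364, 304, 335 and 355 TPM, with the 4 libraries close together. IL3RA, the interleukin 3 receptor chain, was at 42.3, 94.5, 71.8 and 65.0 TPM, CSF2RA, of the GM-CSF receptor, at 55.7, 44.1, 48.9 and 50.7 TPM, and their shared chain CSF2RB at 7.40, 8.01, 8.15 and 7.36 TPM. CSF3R, the G-CSF receptor, averaged 78.5 ± 21.5 TPM and CXCR4, the marrow homing receptor, 83.3 ± 8.58 TPM. EGFR and KDR had no count, and PDGFRA and MET were silent.

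Of 20 growth factor ligands 7 were expressed (35.0%) and 8 were silent (40%), against 53.5% and 31.2% of all protein-coding genes. CSF2, IL3 and IL34 had no count in any library, and CSF3 was at 0 to 0.0417 TPM. FLT3LG, the FLT3 ligand, averaged 1.86 ± 0.759 TPM and shares exon bases with another gene. VEGFA was the highest at 255 ± 70.5 TPM with the main gene length and 36.7 TPM with the length that gives the lowest level. ANGPT1, a ligand of the TEK receptor, was at 74.0, 30.0, 34.6 and 38.7 TPM with replicate 1 highest, while TEK itself was at 0 to 0.0877 TPM. TNF was at 18.0, 39.7, 48.6 and 42.4 TPM and TGFB1 at 8.96, 52.2, 25.3 and 19.5 TPM, both lowest in replicate 1.

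Genes of the downstream pathways were nearly all expressed. Of 20 JAK-STAT genes 18, of 29 RAS-MAPK genes 27 and of 21 PI3K genes 20 were expressed, and none of their members was silent. The shares of all protein-coding genes were 53.5% expressed and 31.2% silent. STAT5A and STAT5B, which FLT3 with the duplication activates, averaged 27.6 ± 4.59 and 24.9 ± 6.41 TPM. Genes known to be induced by STAT5 were among them: PIM1, a survival kinase, was at 158, 183, 172 and 157 TPM, SOCS2, a feedback inhibitor, at 151, 111, 105 and 107 TPM and CISH, another, at 15.05, 62.4, 36.3 and 30.4 TPM. NRAS, a RAS gene, was at 60.0, 35.4, 58.2 and 60.0 TPM, with replicate 2 lowest. The MAPK feedback genes were lower, with DUSP6, an ERK phosphatase whose exons overlap an antisense gene, at 15.3, 13.1, 12.4 and 13.5 TPM, SPRY2 at 3.56, 8.35, 6.96 and 6.04 TPM and SPRY4 at 0.432, 0.464, 0.433 and 0.252 TPM. PIK3CD, the catalytic PI3K subunit of blood cells, averaged 40.6 ± 14.2 TPM and INPP5D, the SHIP1 phosphatase, 101 ± 25.3 TPM.

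Most tumour suppressor genes were expressed, and a few had no count. Of 68 genes 49 were expressed, 10 were silent and 5 of these had no count in any library, against 53.5%, 31.2% and 18.7% of all protein-coding genes. CDKN1A, the p21 cell cycle inhibitor, was at 182.3, 222, 203 and 195 TPM. RB1 averaged 73.1 ± 10.8 TPM, CDKN1B 78.6 ± 12.4 TPM and CDKN2C, which encodes the CDK4 and CDK6 inhibitor p18, 105 ± 7.03 TPM. WT1, a factor often abundant in acute leukaemia, was at 25.1, 43.7, 30.7 and 29.02 TPM. ATM had the highest value of the list, 841 ± 118 TPM, but its median annotated transcript is short and the longest transcript gives 59.2 TPM, so its rank depends on the length used. The 5 genes with no count were CDKN2A, CDKN2B, ID4, CDH1 and SFRP1, and the other 5 silent genes were DLC1, CDH13, DIRAS3, SFRP2 and TIMP3. CDH1 encodes E-cadherin, an adhesion protein of epithelia, SFRP1 and SFRP2 encode inhibitors of WNT signalling, and TIMP3 encodes an inhibitor of metalloproteinases.

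CDKN2A and CDKN2B, which encode the CDK4 and CDK6 inhibitors p16 and p15 and, for CDKN2A, also p14, lie side by side on chromosome 9. In GRCh38 CDKN2A spans 21967753 to 21995301 and CDKN2B 22002903 to 22009363, both on the minus strand. MTAP, at 21802543 to 21937651 on the plus strand, had 2515, 1249, 2367 and 2903 expected counts and 21.9, 14.2, 18.4 and 19.4 TPM. The antisense gene CDKN2B-AS1, which starts in the 5′ end of CDKN2A on the opposite strand and spans CDKN2B, had 30.0, 10, 15 and 28.8 counts. CDKN2A-AS1 had none. Of 58 annotated genes that start within 1 Mb of CDKN2A, non-coding entries and pseudogenes included, 38 had no count in any library. The share of such entries without a count in the whole genome is not given here. Of the 23 protein-coding genes among them, 3 were expressed and 13 had no count, against 53.5% and 18.7% of all protein-coding genes. The expressed genes were HACD4, a fatty acid elongation enzyme, at 3.19 to 3.81 TPM, KLHL9, a ubiquitin ligase adaptor, at 6.73 to 8.29 TPM, and MTAP. Type I interferon genes made up 16 of the 23, of which 11 had no count and 15 had at most 3 counts in any library. IFNB1, the exception, had 10, 10, 9 and 13 counts. Whether the silent genes are present in the DNA of these cells was not tested.

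The reference windows of MTAP, chr9:21802536-21802655 on the plus strand, of both CDKN2A starts, chr9:21995305-21995424 for p14 and chr9:21974838-21974957 for p16 on the minus strand, and of CDKN2B, chr9:22009286-22009405 on the minus strand, are shown for the expressed gene and its neighbours without counts. Capitals mark the NF-Y box, the GC box and the ETS core named above, on either strand. The windows hold 6, 13, 11 and 10 CG dinucleotides in that order, against a median of 4 in silent genes.
MTAP: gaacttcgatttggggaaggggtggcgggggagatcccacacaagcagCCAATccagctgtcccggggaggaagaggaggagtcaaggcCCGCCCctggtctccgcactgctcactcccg
CDKN2A p14 start: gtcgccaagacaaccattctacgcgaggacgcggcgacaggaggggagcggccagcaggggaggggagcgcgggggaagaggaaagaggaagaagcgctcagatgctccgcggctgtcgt
CDKN2A p16 start: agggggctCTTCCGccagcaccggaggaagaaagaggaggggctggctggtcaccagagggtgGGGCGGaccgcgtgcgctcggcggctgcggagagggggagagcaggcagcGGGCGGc
CDKN2B: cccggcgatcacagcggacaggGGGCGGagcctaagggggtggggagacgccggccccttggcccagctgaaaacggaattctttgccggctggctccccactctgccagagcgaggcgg

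**Figure D4:**
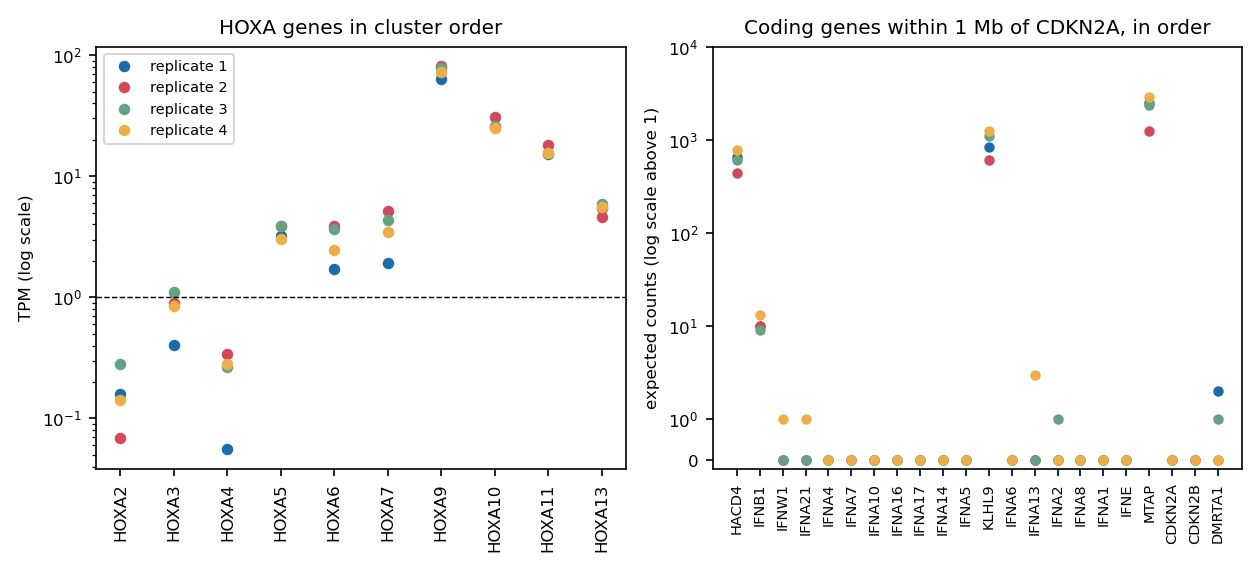
Left, TPM on a log axis of 10 HOXA genes in cluster order, with the dashed line at 1 TPM. Right, expected counts of the protein-coding genes that start within 1 Mb of CDKN2A in chromosome order, leaving out the readthrough gene RP11-145E5.5, on an axis that is linear below 1 and log above; points are the 4 libraries, HOXA9 has the highest values on the left, and HACD4, KLHL9 and MTAP stand out on the right while CDKN2A and CDKN2B are at 0.

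All 29 cyclins, CDKs, E2F factors and proliferation genes were expressed, against 53.5% of all protein-coding genes. PCNA, the replication clamp, was at 630.0, 436, 513 and 533 TPM. CCND3 and CCND2, the D cyclins of blood cells, averaged 187 ± 37.0 and 88.7 ± 19.6 TPM, and CCND1 5.89 ± 1.26 TPM. CDK6 was higher than CDK4, whose exons overlap another gene, in replicates 1, 3 and 4 and lower in replicate 2. MKI67, the proliferation marker, was at 7.20, 23.9, 12.7 and 11.1 TPM, with replicate 2 highest and replicate 1 lowest. CDK1, the mitotic kinase, went the other way at 145, 76.7, 103 and 107 TPM, with replicate 1 highest and replicate 2 lowest.

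Of 17 BCL2 family genes 14 were expressed (82.4%), against 53.5% of all protein-coding genes. The survival genes MCL1 and BCL2 were at 106, 123, 139.6 and 132 and 93.1, 109, 115 and 111 TPM, while BCL2L1, the BCL-XL gene, was lower at 6.85 to 9.75 TPM and shares exon bases with an antisense gene. BCL2A1 was at 7.44 to 11.2 TPM. The effector BAX averaged 174 ± 40.04 TPM and BAK1 40.5 ± 3.79 TPM. Among the BH3-only genes, which set off cell death, BID averaged 81.0 ± 5.08 TPM, PMAIP1, the NOXA gene, 44.5 ± 13.2 TPM, and BCL2L11, the BIM gene, 7.81 ± 2.57 TPM. BOK, HRK and BCL2L10 stayed under 1 TPM in every library.

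Antigens used to recognise or target leukaemia cells were present in part. Of 20 surface antigens 14 were expressed (70%), against 53.5% of all protein-coding genes. CD33, the target of an antibody conjugate, was at 119.6, 136, 111 and 119 TPM. CD70, a TNF family ligand, was at 173, 193, 175 and 178 TPM, with little spread, and LILRB4, an inhibitory receptor of monocytic leukaemia, at 80.0, 115, 112 and 107 TPM. CLEC12A, often used to mark leukaemic stem cells, stayed at 0.377 to 1.03 TPM. CD96 had no count and CD7 was silent. Of the telomerase genes, TERT, the catalytic subunit, was at 0.928, 1.53, 1.15 and 0.981 TPM, and DKC1, which stabilises the telomerase RNA, averaged 109 ± 20.1 TPM. Cancer-testis genes, which many tumours express outside the germ line, were off with 1 exception. Of 22 genes, 20 were silent and 15 had no count, against 31.2% and 18.7% of all protein-coding genes. XAGE1A was at 325, 286, 378 and 333 TPM. It has a near-identical copy, XAGE1B, so the division of reads between the copies is uncertain, and PRAME, a frequent leukaemia antigen, was silent.

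Glycolytic genes and MHC class I genes were abundant. Of 31 genes of glucose uptake and glycolysis 22 were expressed (71.0%), against 53.5% of all protein-coding genes, and 11 had at least 100 TPM in every library. ENO1 averaged 3556 ± 126 TPM, PKM 433 ± 100.2 TPM and LDHA 540.3 ± 126 TPM. The glucose transporter SLC2A3 was at 83.5, 82.6, 105 and 109 TPM and SLC2A1 at 26.0, 42.3, 36.9 and 34.8 TPM, while SLC2A2 of liver, PGAM2 of muscle and PGK2 and LDHC of testis had no count. Of 13 MHC class I genes 11 were expressed (84.6%). B2M, the shared light chain, was at 2152, 1179, 1542 and 1651 TPM, with replicate 1 highest, and HLA-B at 1311, 1327, 1399 and 1378 TPM. HLA genes are near copies of each other and vary in sequence, so their division of reads is uncertain. Of 13 MHC class II genes 4 were expressed (30.8%), under the 53.5% of all protein-coding genes. CD74, the invariant chain, was at 70.9, 243, 229 and 199 TPM, HLA-DRA at 4.89, 3.59, 3.67 and 4.25 TPM, and CIITA, the activator of the class, stayed under 1 TPM in every library at 0.351 to 0.885 TPM.

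The libraries differed from each other by more than counting error. The coefficient of variation (CV) of a gene, its SD divided by its mean after scaling of the libraries by trimmed mean of M values (TMM), had a median of 16.2% over the 10864 protein-coding genes that averaged 1 TPM or more. It was 19.1% at a mean of 1 to 10 TPM and 15.1% at a mean of 100 to 1000 TPM. Counting alone would give 6.203% and 1.27%. Between the highest and the lowest library, 1799 genes (16.6%) differed by over 2-fold. Of these, 1170 were lowest in replicate 1 and 1121 were highest in replicate 2. Without replicate 1 the number was 384 and without replicate 2 it was 648, against 1758 and 1765 without replicate 3 or 4, each a range over 3 libraries in place of 4. Replicates 3 and 4 were the most alike, with 97.8% of genes within 1.5-fold, and replicates 1 and 2 the least, with 59.8%. No pair agreed within sampling noise, the chi-square per degree of freedom being at least 14.0, so no library repeated the counts of another. Whether the libraries come from separate cultures or from repeat preparations of the same RNA cannot be read from this.

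The ratio of a library to the others varied with GC content in replicates 1, 2 and 4, most widely in replicates 1 and 2. In genes with a GC content of up to 42.9%, the lower quartile over transcripts, the median log2 ratio of a library to the mean of the other 3 was 0.33 in replicate 1, −0.44 in replicate 2, 0.0048 in replicate 3 and 0.085 in replicate 4. In genes from the upper quartile of 57.4% it was −0.29, 0.32, 0.043 and −0.13. Across 10859 genes the log2 ratio correlated with GC content with r = −0.46 in replicate 1, 0.62 in replicate 2, 0.080 in replicate 3 and −0.46 in replicate 4, a description over genes that share these libraries. Its part in the spread of single genes was not tested.

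The widest spread was found mainly through low values in replicate 1 and high values in replicate 2. Among genes with a mean of at least 10 TPM, the 15 with the largest CV included RPS16, MRPL12, MT-ND3, PRKCD, LSM10, PRG2, PIGY, NAA60, ARHGDIA, EIF5B, BANF1, SEPHS2 and TECR. Of the 15, 13 were lowest in replicate 1 and 14 were highest in replicate 2, and their median GC content was 56.2%, against 52.9% in the 10 genes with the smallest CV and 49.2% in expressed genes. RPS16, a small subunit protein, was at 42.6, 1394, 620.1 and 174 TPM, with all 4 libraries far apart. MT-ND3, of mitochondrial complex I, was at 49.3, 676, 276 and 208 TPM, and ARHGDIA, an inhibitor of small GTPases, at 13.0, 127, 74.9 and 44.6 TPM. MRPL12, PIGY and ARHGDIA share 68.2%, 100% and 26.2% of their exon bases with another annotated gene. Their levels and spread are therefore uncertain, as for PRG2 above.

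The 10 genes with the smallest CV were AKR7A2, ERP29, KCTD3, MEST, PSMC3, IWS1, DOCK2, ATP5G2, TADA3 and CECR5. AKR7A2, an aldehyde reductase, had 62.8, 62.6, 62.4 and 62.7 CPM after TMM scaling. DOCK2, an activator of Rac found in blood cells, had 336, 336, 340.2 and 344, and PSMC3, a proteasome subunit, 103, 103, 101 and 102. The highest library exceeded the lowest by a ratio of 1.01, 1.02 and 1.02 in these 3 genes.

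**Figure D5:**
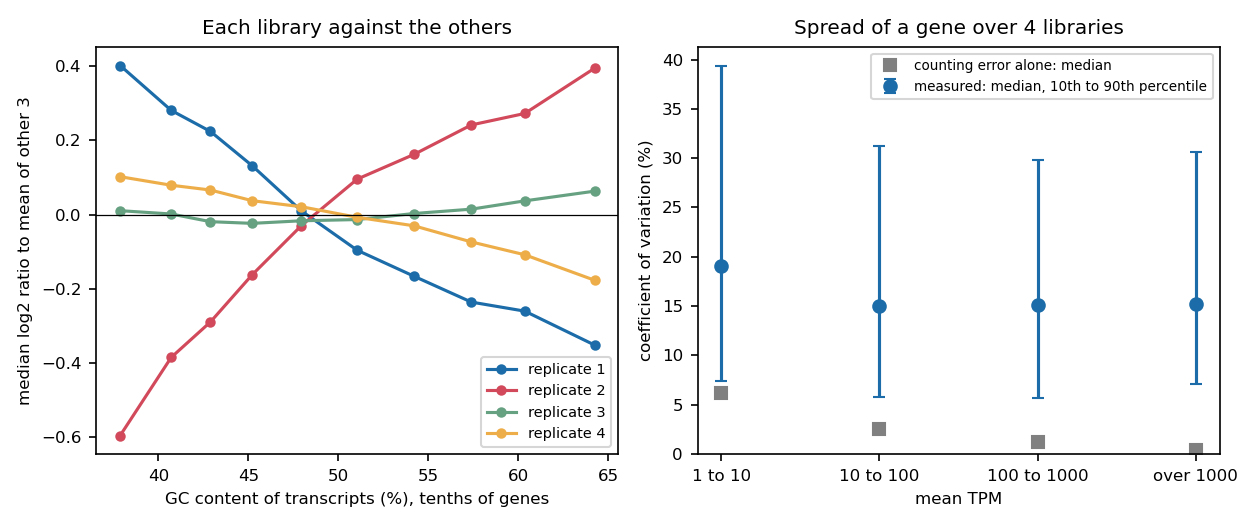
Left, median log2 ratio of each library to the mean of the other 3 for 10 groups of genes of equal size by GC content of their transcripts; right, coefficient of variation in percent by class of mean TPM, with the median and the 10th to 90th percentile (blue) and the median that counting error alone gives (grey squares). The lines of replicates 1 and 2 cross near 48.0% GC with opposite slopes, and the measured medians of 15.01% to 19.1% lie above the counting medians in every class.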

How the data were processed

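RNA of MOLM-13 cells was sequenced, and the authors deposited RSEM expected counts per gene, without scaling, as 1 table. Per the submitters' processing notes, STAR 2.5.3 was the aligner, GRCh38.p7 the build and RSEM the counter; annotation, strand setting and RNA selection are not given in the sources used here. The 4 DMSO columns were used, with 31.1 to 52.9 M expected counts. Gene types, positions and lengths came from GENCODE release 29, which holds 56927 of the 60669 genes; the rest took at most 0.0278% of counts. TPM used the median length of transcripts tagged basic. TMM factors and dispersion came from edgeR 4.0.16 on rounded counts (R 4.3.3), other values from Python 3.11.15, numpy 2.4.6, pandas 2.3.3 and matplotlib 3.10.9. The calculations were tested on simulated data. No groups were contrasted. Dixon's ratio and a chi-square per degree of freedom were used to describe how single libraries differ.

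The genes named are members of 36 lists (744 genes), the 25 coding and 10 non-coding genes with the highest TPM, the 15 widest and 10 narrowest in CV from 10 TPM up, and genes that start within 1 Mb of CDKN2A. Members and lists were chosen with earlier results of these data known. Genes with over 20% of exon bases in another gene, or a level that moves over 3 times with the length definition, are named as uncertain. Alternatives were other thresholds, lengths, denominators, scalings (DESeq2 1.42.0 size factors among them) and filters, and leaving out each replicate. Some members of the lists are not reported here by name.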

Additional observations from a re-analysis of the deposited data

Results flagged for a closer look

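In each group of 4 values the library farthest from the others was compared with Dixon's 95% limit, which chance passes in about 1 of 20 groups. Of 171 coding genes given with values, 19 had a library apart, 6 of them in replicate 1, 12 in replicate 2 and 1 in replicate 4.

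Replicate 1 passed the limit in the RNA of ribosomes. Mitochondrial ribosomal RNA took 1.61% of its counts and the CH507-513H4 entries 2.44%. Long intergenic RNA, which includes those entries, took 3.02%. In replicate 2 mitochondrial ribosomal RNA took 0.133%, above replicates 3 and 4 at 0.00920% and 0.00689%. Replicate 1 was lowest for EZH2 at 14.6 TPM, GAPDH at 4234 TPM, PKM, pyruvate kinase, at 285 TPM and RIOK1 at 43.9 TPM. It was highest for SOCS2 at 151 TPM.

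Replicate 2 was highest for the D cyclins CCND2 at 118 TPM and CCND3 at 242 TPM, CTSG at 404 TPM, FLT3LG at 2.998 TPM, HOXA10 at 30.9 TPM, HOXA11 at 18.2 TPM and KDM6A at 11.9 TPM. It was lowest for NRAS at 35.4 TPM, PMAIP1 at 24.7 TPM, PTMA at 4398 TPM and RB1 at 56.8 TPM. Replicate 4 was lowest for SPRY4 at 0.252 TPM. CLC at 0.0755 TPM in replicate 1 and CSF3 at 0.0417 TPM in replicate 2 are also among the 19, but each rests on 1 count with the other 3 libraries at 0, where the limit is passed by any count, so they set no library apart.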

How the results depend on the processing

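The number of expressed genes stayed between 9891 and 11100 in every alternative run, and from 10545 to 10696 when 1 replicate was left out. The silent genes numbered 3688 when silent meant no count in any library, and 6229 to 6372 without 1 replicate. They numbered 5688 with merged exon lengths, 5885 with the longest transcript and 6874 with TPM over all genes. The 100 most abundant genes held 35.8% of TPM with merged exon lengths, 38.0% with the longest transcript, and 40.2% to 41.8% without 1 replicate. Genes over 2-fold between libraries numbered 1088 from 10 TPM up and 5960 with no filter, and 384 to 1765 without 1 replicate, the lowest 2 values without replicate 1 and without replicate 2. The median CV was 21.8% with no filter and 11.5% to 18.5% without 1 replicate. With total counts in place of TMM 2141 genes were over 2-fold. Merged exon lengths moved the TPM of 488 of 706 named coding genes by over 1 SD and TPM over all genes that of 554. Of 36 lists, the expressed count moved by over 1.5 times for eosinophil, basophil and mast cell genes and MHC class II at 0.5 TPM (4 and 7 members), and for the list of epithelial cells, fibroblasts and endothelium at 2 TPM, with merged exon lengths and over all genes (1 member each). No paired analysis was possible because only 1 group was described. Depth, from 31.1 M counts up, limits genes at a few counts, and gene length limits comparisons between genes.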

Other observations

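Large gene families, picked by their symbols after levels had been seen, ranged from absent to complete. Of all protein-coding genes, for comparison, 53.5% were expressed, 31.2% were silent and 18.7% had no count. Of 381 olfactory receptors none was expressed and 337 had no count, and of 94 keratin-associated proteins all were silent. Of 56 cytochrome P450 genes 6 were expressed, led by the sterol enzyme CYP51A1 at 145 TPM, and of 44 collagens 4, led by COL23A1 at 22.0 TPM. Of 19 SOX factors 2 were expressed and of 50 forkhead factors 11. Of 41 chemokine ligands 12 were expressed, and CCL5, which recruits T cells and monocytes, had the highest mean at 401 TPM. Zinc finger genes named ZNF were expressed in 333 of 514 cases (64.8%), against 53.5% of all protein-coding genes, with a median of 4.51 TPM. At the other end, 77 of 78 mitochondrial ribosomal proteins, 38 of 41 proteasome subunits, 54 of 56 translation initiation factors and all 17 aminoacyl-tRNA synthetases whose symbol is a single letter followed by ARS were expressed. The family medians were 91.2, 114, 102 and 230.0 TPM. EIF3E, a subunit of initiation factor 3, had the highest mean in these 4 families at 3294 TPM.

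Clustered histone genes, whose mRNA carries no poly(A) tail, were expressed in 59 of 71 cases, against 53.5% of all protein-coding genes. They held 3.21% of protein-coding TPM. The 13 mitochondrially encoded proteins were all expressed but held 0.474%, and their median CV of 49.2% compares with 15.2% in the ribosomal protein genes.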
